A study of Homo sapiens with 2 samples.

Results

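The genes that encode 10 intermediate filament proteins were examined for open chromatin in 293T cells with and without methylglyoxal (MGO). They were taken from a list by their GENCODE 44 symbols, and all 10 were found among 20007 protein-coding genes. The list holds the neuronal filament genes NEFL, NEFM, NEFH and INA, the neural progenitor gene NES, the astroglial gene GFAP, the mesenchymal gene VIM, the muscle gene DES, and the epithelial keratin genes KRT8 and KRT18. ATAC-seq, in which the Tn5 transposase cuts DNA that is not covered by nucleosomes, was performed on 293T cells, an established line from human embryonic kidney with the large T antigen of SV40. Peaks of 1 control library and of 1 library from cells given 0.5 mM MGO for 12 h were compared, each made from 50000 cells. One deposited label gives PBS as the control treatment, whereas the treatment protocol describes fresh medium without a supplement. Only 1 library of each condition was analysed, so no difference is backed by replicates, no test between the conditions was made, and all values below describe these 2 libraries.

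Intermediate filaments are the rope-like part of the cytoskeleton, and the gene that a cell uses for them follows its tissue of origin. Keratins 8 and 18 pair in simple epithelia, such as those of kidney tubules, vimentin is the filament of mesenchymal and many cultured cells, desmin that of muscle, and GFAP that of astrocytes. Nestin is found in neural progenitors, and neurons assemble the light, medium and heavy neurofilament proteins with alpha-internexin, the product of INA. The line was started from embryonic kidney cultures, and a neuronal character has been discussed for it because of neurofilament proteins, so these genes bear on what kind of cell the line is. An ATAC-seq peak at a promoter shows open DNA and is not a measure of transcription.

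All deposited peaks were used, 36142 in control and 22884 in MGO. The depth behind a peak is unknown, since the lists hold no read counts. The strength of a peak is given by its fold enrichment over background and by the −log10 of its q value, both as computed by the authors' peak caller. The weakest peaks of both lists have a −log10 q of 1.01, and the study's methods use a q value under 0.01, a −log10 q above 2. A peak was counted at a transcription start site (TSS) when it lay within 1000 bp of the start of any transcript of the gene, and peaks of the 2 lists were called overlapping from 1 bp. The canonical TSS is that of the transcript Ensembl names as representative.

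Sequences are shown as examples for 1 gene of each class with a TSS peak. The comparisons of the classes below use other windows. For INA, NES and VIM they are the 250 bases before the start in a RefSeq promoter table of GRCh38. For KRT8 they are the middle 300 bases of the MGO peak inside the gene, read from GRCh38 on the strand of the gene. Capitals mark matches, on either strand, to the GC box GGGCGG, to the box CCAAT, to the TATA box written TATAAA, to the AP-1 site TGANTCA, and to both arms, TCAGCAC and then GGACAG, of RE1, the element bound by the repressor REST.
INA, chr10:103276888-103277137, plus strand: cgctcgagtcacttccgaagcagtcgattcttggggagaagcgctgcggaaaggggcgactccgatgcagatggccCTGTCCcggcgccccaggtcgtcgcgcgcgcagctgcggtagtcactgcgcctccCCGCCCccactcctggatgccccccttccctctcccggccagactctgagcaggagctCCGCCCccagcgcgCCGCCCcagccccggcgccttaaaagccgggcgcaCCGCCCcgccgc
NES, chr1:156677408-156677657, minus strand: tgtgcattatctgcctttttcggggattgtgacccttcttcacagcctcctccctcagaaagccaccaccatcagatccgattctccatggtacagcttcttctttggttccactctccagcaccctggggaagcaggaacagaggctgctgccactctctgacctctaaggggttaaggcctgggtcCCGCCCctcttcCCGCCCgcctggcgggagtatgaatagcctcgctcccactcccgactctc
VIM, chr10:17227991-17228240, plus strand: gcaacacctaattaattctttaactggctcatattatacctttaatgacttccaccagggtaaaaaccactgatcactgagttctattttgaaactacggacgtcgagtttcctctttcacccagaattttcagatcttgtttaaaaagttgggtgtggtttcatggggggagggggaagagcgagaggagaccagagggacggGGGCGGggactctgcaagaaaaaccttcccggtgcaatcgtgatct
KRT8, chr12:52903653-52903952, minus strand: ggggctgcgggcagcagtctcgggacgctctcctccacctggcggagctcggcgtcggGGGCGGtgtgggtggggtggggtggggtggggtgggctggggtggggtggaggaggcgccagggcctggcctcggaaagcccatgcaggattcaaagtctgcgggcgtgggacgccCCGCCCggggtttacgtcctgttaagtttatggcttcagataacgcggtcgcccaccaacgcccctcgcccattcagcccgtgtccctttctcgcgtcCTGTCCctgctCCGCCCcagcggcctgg

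The INA sequence has a GC content of 72.8% with 30 CpG dinucleotides and holds 4 GC boxes and 1 match to GGACAG. Of its 250 bases, 163 lay in the control peak and 57 in the MGO peak. The NES sequence, at 58.0% GC with 8 CpGs, holds 2 GC boxes, and 242 of its bases lay in the control peak and 0 in an MGO peak. The VIM sequence, at 46.0% GC with 8 CpGs, holds 1 GC box. All 250 of its bases lay in the control peak and 37 in the MGO peak, whose edge moved toward the gene. The KRT8 sequence, at 70.3% GC with 26 CpGs, holds 3 GC boxes and 1 match to GGACAG. It lies in the MGO peak by choice, since it was cut from it, and it also lay wholly in the control peak. Among 35116 promoter sequences of the same table and of 250 bases, 42.6% hold a GC box, 32.0% a CCAAT, 10.7% a TATAAA, 6.57% an AP-1 site, 3.55% TCAGCAC and 17.2% GGACAG. The table matched INA, NES, VIM and KRT8, 4 of the 10 genes. Its KRT8 entry is an upstream start that had no peak in either library. NEFL, NEFM, NEFH, GFAP, DES and KRT18 have no entry.

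Of the 10 genes, 7 had a TSS peak in control and 6 in MGO. Across all protein-coding genes the share was 67.4% in control and 63.9% in MGO, so the genes together stood near the background. The peaks did not follow 1 filament class. Of the 4 neuronal genes, NEFL, NEFM and INA had a TSS peak in both libraries and NEFH in neither. VIM had one in both and DES in neither. KRT8 and KRT18 had one in both. NES had a TSS peak in control alone, and GFAP had none. NES was thus the 1 gene of the 7 whose TSS peak in control was without a TSS peak in MGO, where 7.01% of all genes with a control TSS peak were. The reverse, an MGO TSS peak without one in control, was found for 1.98% of all genes with an MGO TSS peak and for 0 of the 6 genes here. With a −log10 q of at least 2, 7 of the 10 genes had a TSS peak in control and 5 in MGO, where 63.3% and 57.8% of all genes did. A peak lay over the gene body of NEFL, NEFM, INA, VIM, KRT8 and KRT18 in both libraries, 6 of 10 genes, against 71.7% of all genes in control and 66.6% in MGO. In each of these genes the peak over the body was also the TSS peak. All 10 genes had a peak within 50 kb of a TSS in both libraries, as did 90.3% of all genes in control and 85.4% in MGO.

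**Figure D1:**
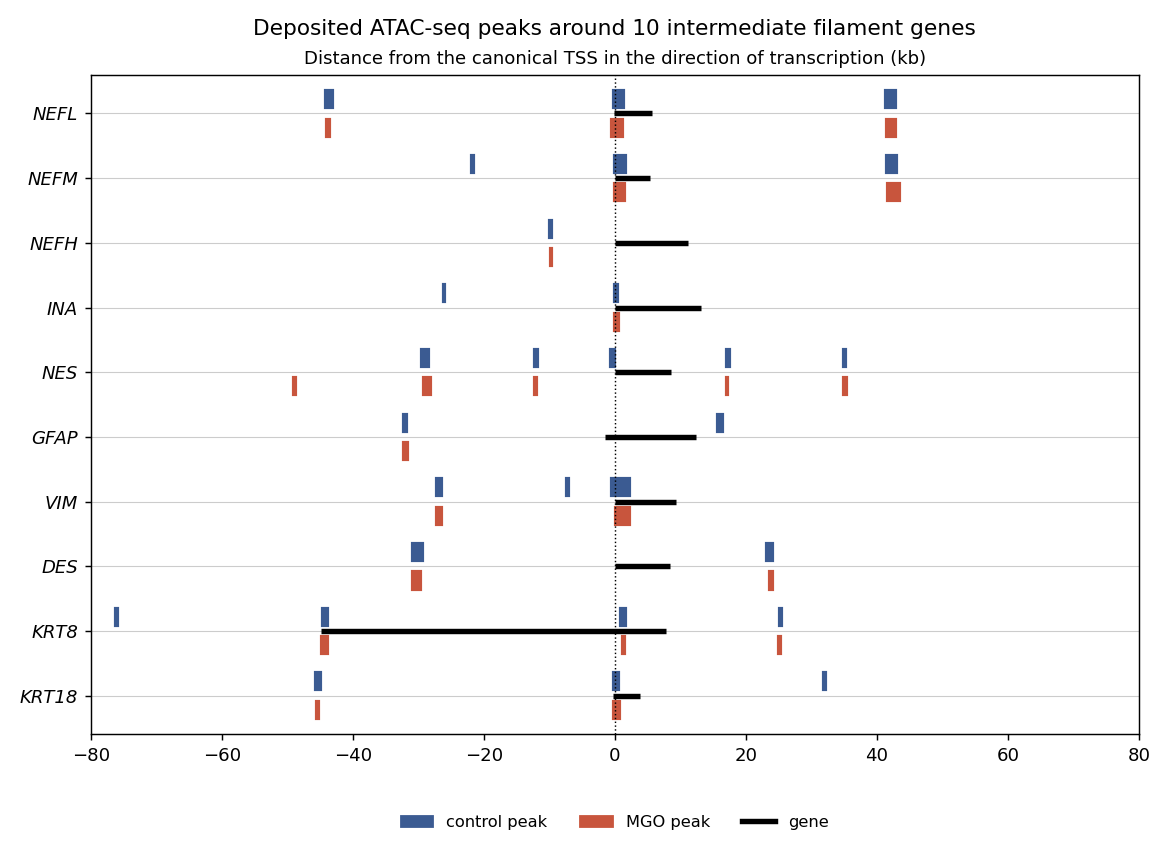
Peaks around each gene by distance from its canonical TSS in kb, in the direction of transcription, with control peaks drawn above the line, MGO peaks below it and the gene as a black bar. NEFL and NEFM appear in each other's rows, as do KRT8 and KRT18, and NEFH, GFAP and DES have no peak at the TSS in either library.

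The neuronal filament genes lie at 3 places in the genome. NEFL, for the light neurofilament protein (ENSG00000277586.4, chromosome 8, 24950955 to 24956721, minus strand), and NEFM, for the medium one (ENSG00000104722.14, chromosome 8, 24913758 to 24919098, plus strand), are neighbours, and the TSS peak of each lies within 50 kb of the other gene. The NEFL peak spanned 24955173 to 24956897 in control, with a fold enrichment of 4.13 and a −log10 q of 6.50. In MGO it spanned 24955362 to 24957237, with values of 3.20 and 2.93. The NEFM peak ran from 24913708 to 24915396 in control, at a fold enrichment of 4.03 and a −log10 q of 4.51, and from 24913664 to 24915248 in MGO, at 3.08 and 1.91. That last value is below the threshold of the methods, so at a −log10 q of at least 2 NEFM has no MGO peak. Both peaks were exonic and wide. Their control widths of 1725 and 1689 bp exceeded those of 88.4% and 87.2% of genes with a control TSS peak, each gene taken by its strongest one. Both also covered a TSS of a lncRNA gene, ENSG00000272157 at NEFL and ENSG00000272163 at NEFM, whose openness cannot be told apart from that of the filament gene.

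INA (ENSG00000148798.11, chromosome 10, 103277138 to 103290346, plus strand) had a TSS peak from 103276975 to 103277692 in control, with a fold enrichment of 3.90 and a −log10 q of 6.27. In MGO the peak ran from 103277081 to 103277833, with 2.89 and 2.36. NT5C2, a gene for a cytosolic nucleotidase, has a TSS within 1000 bp of the same peaks, which overlap exons of both genes. The openness of INA there cannot be told apart from that of NT5C2. The control peaks of NEFL, NEFM and INA were thus all stronger than their MGO peaks on both measures. NEFH, for the heavy neurofilament protein (ENSG00000100285.10, chromosome 22, 29480218 to 29491390, plus strand), stood apart. Neither list held a peak over the gene or within 1000 bp of its single annotated TSS. The 1 peak within 50 kb lay 9570 bp upstream in control, from 29470171 to 29470648, over an exon of the lncRNA gene RFPL1S, with a fold enrichment of 4.27 and a −log10 q of 6.86. In MGO it lay at 29470276 to 29470630 with 3.01 and 2.99.

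NES (ENSG00000132688.11, chromosome 1, 156668763 to 156677407, minus strand) had a control peak from 156677416 to 156678207. It began 9 bp upstream of the TSS, in intergenic DNA, with a fold enrichment of 3.09 and a −log10 q of 3.39. No MGO peak of any deposited strength overlapped it. Its −log10 p of 5.79 was higher than that of 20.1% of genes with a control TSS peak, so it was among the weaker promoter peaks. The control peak of KRT18 was weaker still, with 5.24, higher than for 14.8% of these genes, and it had an MGO counterpart. The surroundings of NES were the richest in peaks of the 10 genes, with 5 in control and 5 in MGO within 50 kb, more than 81.4% and 90.8% of all genes had. The other 4 control peaks, at TSSs of BCAN, BCAN-AS2, CRABP2 and the lncRNA gene ENSG00000285570, all overlapped an MGO peak. The strongest of them, 11770 bp upstream of NES at the lncRNA gene, had a fold enrichment of 3.94 in control and 2.61 in MGO. The fifth MGO peak, 48600 bp upstream from 156726007 to 156726582 at a TSS of ISG20L2, was the 1 MGO peak near the 10 genes without a control counterpart, with a −log10 q of 1.90. GFAP (ENSG00000131095.14, chromosome 17, 44903159 to 44916937, minus strand) has 31 annotated start positions, the most of the 10 genes, and none had a peak within 1000 bp. A control peak at the shared promoter region of CCDC103 and EFTUD2, 15549 bp from the canonical TSS, with a −log10 q of 3.74, had no MGO counterpart. The peak at KIF18B was kept, with a −log10 q of 4.59 in control and 4.69 in MGO.

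VIM (ENSG00000026025.16, chromosome 10, 17228241 to 17237593, plus strand) had the widest TSS peak of the 10 genes. It spanned 17227646 to 17230587 in control, 2942 bp, wider than the strongest TSS peak of 99.4% of genes. In MGO it spanned 17228204 to 17230587, 2384 bp, wider than that of 98.5% of genes. The downstream edge was the same base in both libraries, and the upstream edge lay at −595 bp from the TSS in control and at −37 bp in MGO. Its fold enrichment was 2.998 in control and 2.95 in MGO, lower than for most genes, while its −log10 q was the highest of the 10 genes at 7.94 and 7.88. The peak covered exons of VIM and of VIM-AS1, the antisense RNA gene. A control peak in an intron of VIM-AS1, 6998 bp upstream of VIM, with a −log10 q of 3.17 and a GC content of 35.9%, had no MGO counterpart. The strongest control peak near any of the 10 genes was that of TRDMT1, a tRNA methyltransferase gene 26365 bp upstream of VIM, with a −log10 q of 17.1 in control and 6.92 in MGO. DES (ENSG00000175084.13, chromosome 2, 219418377 to 219426735, plus strand) had no peak over the gene or at its 5 start positions in either list. Its 2 neighbouring peaks lay at TSSs of DNPEP and of the muscle kinase gene SPEG and were found in both libraries. That at SPEG had a −log10 q of 3.44 in control and 1.24 in MGO.

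The epithelial pair KRT8 (ENSG00000170421.13, chromosome 12, 52897187 to 52949954, minus strand) and KRT18 (ENSG00000111057.11, chromosome 12, 52948871 to 52952906, plus strand) overlap in GENCODE 44, since the longest KRT8 transcripts start within KRT18. One peak served both genes there, from 52948909 to 52949775 in control and from 52948899 to 52949934 in MGO. Its fold enrichment was 3.02 and 3.05 and its −log10 q 2.89 and 2.85, close to each other in the 2 libraries. KRT8 had a second peak of its own, from 52903360 to 52904224 in control and from 52903580 to 52904025 in MGO. It covers an annotated start of KRT8 and lies 852 bp into the gene from the canonical TSS in control and 1051 bp in MGO. With the canonical TSS alone KRT8 therefore counts as having a peak in control and not in MGO. The fold enrichment of this peak was 3.79 and 3.50 and its −log10 q 6.41 and 5.19. Its width was 865 bp in control and 446 bp in MGO. An intergenic peak downstream of KRT8, from 52879527 to 52880063 in control with a −log10 q of 7.60, was kept in MGO with 3.52. Another between KRT18 and EIF4B, from 52980904 to 52981333 with 1.85, was not.

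**Figure D2:**
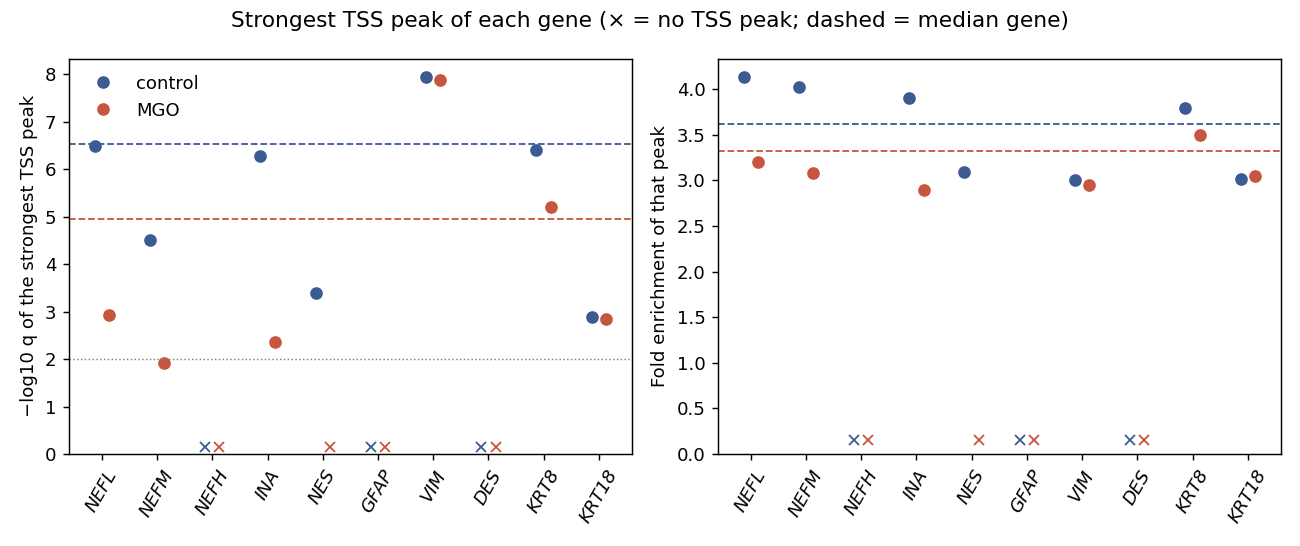
The −log10 q (left) and the fold enrichment (right) of the strongest TSS peak of each gene, with control in blue, MGO in red, crosses for genes without a TSS peak and dashed lines for the median of all protein-coding genes with one. NEFL, NEFM and INA fall from 3.90 to 4.13 in control to between 2.89 and 3.20 in MGO in fold enrichment, while VIM and KRT18 hold nearly the same values. The dotted line at 2 is the q threshold of the methods.

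Of the 10 genes, 6 had TSS peaks in both libraries, and the strongest of each gene were compared. The ratio of fold enrichment in MGO to that in control was 0.741 for INA, 0.764 for NEFM and 0.775 for NEFL. It was 0.923 for KRT8, 0.983 for VIM and 1.01 for KRT18. Over the 12532 protein-coding genes with a TSS peak in both libraries the median ratio was 0.918, and it was below 1 for 75.6% of them. The ratios of INA, NEFM and NEFL were higher than those of 5.44%, 8.42% and 10.2% of these genes, and those of KRT8, VIM and KRT18 than those of 51.9%, 70.7% and 78.4%. The −log10 p values gave the same order of the groups, with ratios from 0.545 for INA to 0.622 for NEFM among the neuronal genes and from 0.881 for KRT8 to 1.02 for KRT18 among the others, against a median of 0.810. Peak widths did not. They were 1.05 times as large in MGO for INA, 1.09 times for NEFL and 0.938 times for NEFM, but 0.516 times for KRT8 and 0.810 times for VIM, with 1.19 times for KRT18 and a median of 0.908. Ratios of other genes did not fall into the same classes. In the wider family the fold enrichment ratio was 0.824 for SYNM, of the same type IV as the neuronal genes, 1.03 for the lamin gene LMNB1 and 0.705 for LMNA, whose strongest peaks lay at different starts in the 2 libraries. Among the neuronal markers described below it was 0.854 for ELAVL4, 0.889 for SNAP25, 0.894 for SYP and 0.965 for TUBB3. It was 1.01 for MAP2, 1.02 for ENO2 and 1.11 for RBFOX3, and all of these were above the ratios of NEFL, NEFM and INA. Ratios as low were found for the mesenchymal marker FN1, 0.767, and the filament linker genes MACF1, 0.733, and PLEC, 0.772. The other mesenchymal markers and linker genes with a TSS peak in both libraries had higher ones. These are single peaks in single libraries, NEFL and NEFM are neighbours, and the difference between the classes was not tested. The classes also differed in control. There the fold enrichment of INA, NEFM and NEFL exceeded that of 64.7%, 70.6% and 75.2% of genes with a control TSS peak. For KRT8, VIM and KRT18 these shares were 58.9%, 18.9% and 19.8%. The ratios were not adjusted for the control level.

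Within 50 kb of the 10 genes, counting each peak once, lay 23 control and 18 MGO peaks. An MGO counterpart was found for 17 of the control peaks, a share of 73.9% with a 95% Wilson interval of 53.5 to 87.5%, which covers counting error only. Of all control peaks within 50 kb of a protein-coding TSS, 59.1% did (58.5 to 59.7%), a share inside the interval of the filament genes. At the threshold of the methods the order of the shares turned, to 60% around the filament genes and 66.6% around all genes. By class the counts were 5 of 7 for the neuronal genes, 5 of 7 for NES and GFAP, 4 of 5 for VIM and DES and 3 of 4 for the keratins. Of the 23 control peaks, 17 lay within 1000 bp of a TSS of some protein-coding or lncRNA gene, and 15 of these overlapped an MGO peak. Of the 6 elsewhere, 2 did. Around all protein-coding genes the shares were 86.1% of control peaks near a TSS and 23.9% of those elsewhere, so both counts stood near the background. These 2 are the peak upstream of NEFH and the one downstream of KRT8. The 4 that did not were those in introns of ADAM7-AS1 near NEFM, of NT5C2 near INA and of VIM-AS1, and the intergenic one beyond KRT18. Peaks covered 21.3 kb of the 914 kb around the genes in control and 16.3 kb in MGO, a ratio of 0.767, against 0.698 around all protein-coding genes. The ratio was 0.801 for the neuronal genes, 0.796 for NES and GFAP, 0.733 for VIM and DES and 0.718 for the keratins.

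To see whether base composition sets the filament genes apart, GC content was taken within 500 bp of the canonical TSS. Genes with GC-rich starts more often had a TSS peak. In 10 groups of equal size, the share with a control peak rose from 18.3% in the lowest group to 88.3% in the highest, with the maximum of 88.7% in the ninth. NEFH, at 69.0% GC, and DES, at 67.1%, belong to the eighth group together with INA, at 67.8%. In that group 85.0% of genes had a TSS peak in control and 82.8% in MGO, yet NEFH and DES had none. VIM, at 52.8% GC, belongs to the third group, in which 57.1% and 53.1% of genes had one, and it had a peak in both. GFAP and KRT8 had few CpGs for their GC content, with observed to expected ratios of 0.362 and 0.344 where the median gene had 0.725. The neuronal genes had 0.803 to 0.927.

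**Figure D3:**
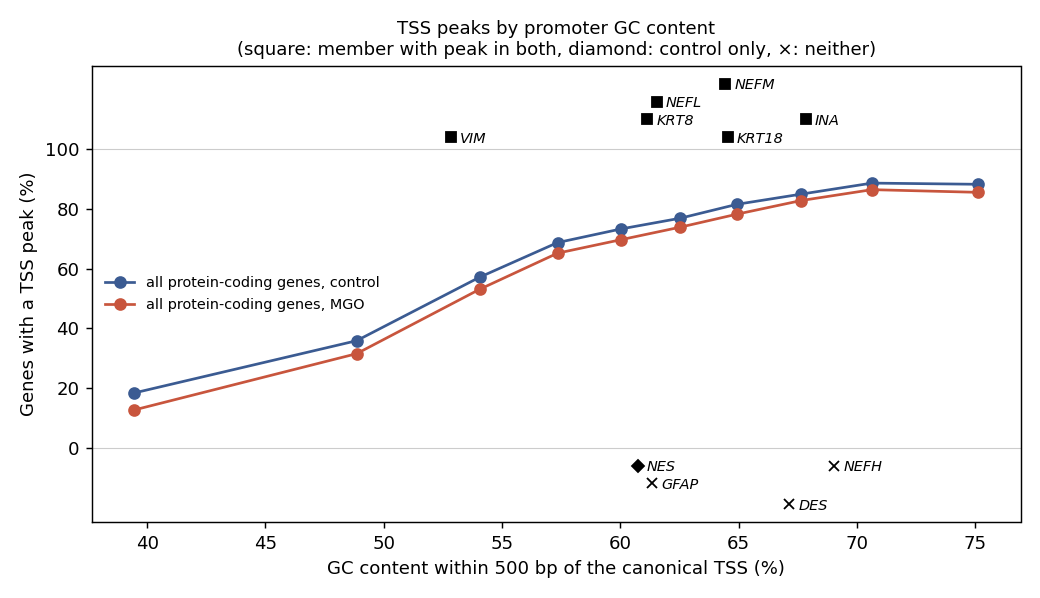
Share of protein-coding genes with a TSS peak in 10 groups of GC content within 500 bp of the canonical TSS (x axis, group medians, %), with the 10 genes placed by their own GC content above or below the scale by whether they had a peak. NEFH and DES, at 69.0% and 67.1%, have no peak where more than 80% of genes do, and VIM at 52.8% has one.

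REST is a repressor that keeps many neuronal genes silent outside neurons by binding RE1. Matches to RE1 were therefore searched around the 10 genes, as TCAGCAC, 3 bases of any kind and GGACAG, on both strands and with at most 1 mismatch in the 13 letters. Within 2000 bp of a TSS, NEFM, NEFH and INA had a match, 3 of the 4 neuronal genes, and none of the other 7 genes did. Of all protein-coding genes, 4.18% had one. The exact matches near NEFH, INA and NES are shown with the spacer in lower case. That of NES is 25180 bp from its TSS and inside BCAN.
NEFH, chr22:29478679-29478694, minus strand: TCAGCACcggGGACAG
INA, chr10:103279012-103279027, minus strand: TCAGCACcgtGGACAG
NES, chr1:156652212-156652227, minus strand: TCAGCACcagGGACAG
The match at NEFH lies 1524 bp upstream of the TSS, in an intron of RFPL1S, and that at INA 1874 bp downstream, in an intron of INA. The match at NEFM, with 1 mismatch, lies 912 bp upstream, in an exon of ENSG00000272163. A further match with 1 mismatch lies 2852 bp upstream of NES. Another with 1 mismatch lies near the epithelial gene KRT8, in intergenic DNA 28766 bp from its nearest TSS. No match within 50 kb of the 10 genes lay in a peak of either library. Of 6533 matches in the genome, 2.16% lay in a control peak and 1.33% in an MGO peak, so most matches lie outside peaks. Genes with a match near the TSS had a TSS peak in 71.8% of cases in control and 68.1% in MGO, close to the share among all genes. A match is a run of letters, and binding of REST was not measured.

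**Figure D4:**
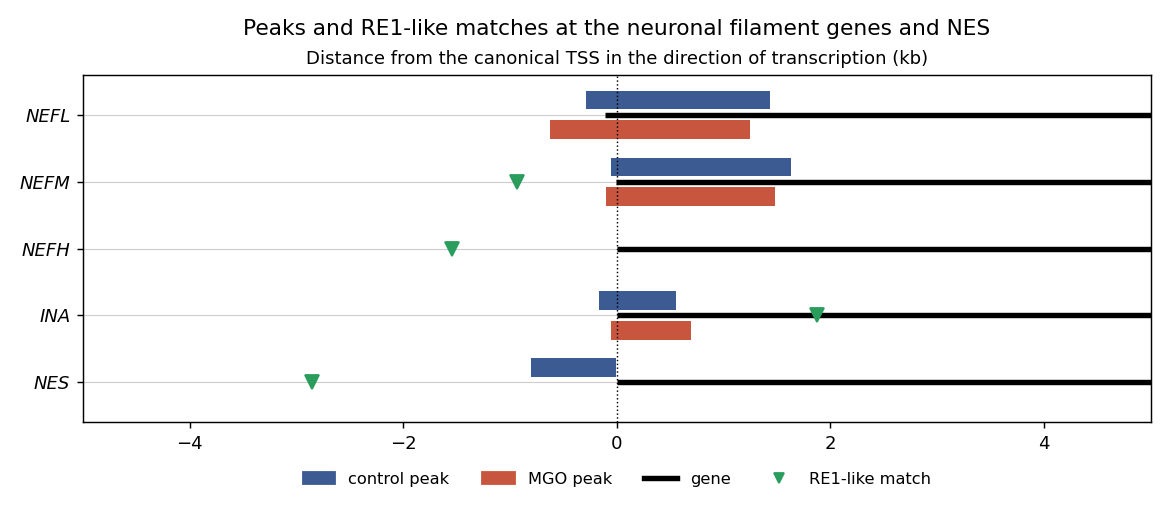
Peaks of control (above the line) and MGO (below) and RE1-like matches (triangles) within 5 kb of the canonical TSS of the neuronal filament genes and NES, in kb in the direction of transcription. The matches at NEFM, NEFH, INA and NES all lie outside the peaks, and NEFH has a match and no peak.

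In the wider family of 69 intermediate filament genes, types I to VI, 12 had a TSS peak in control and 11 in MGO, 17.4% and 15.9%, well below the shares of all genes. The keratins make up most of the genes without one. Of 28 type I and 26 type II keratin genes, KRT18 and KRT8 were the 2 with a TSS peak, in both libraries, and the other 52 had none (3.70% of keratins, Wilson interval 1.02 to 12.5%). The median GC content of these 52 starts was 54.1% and their median CpG ratio 0.264, against 61.3% and 0.725 over all genes. A peak of any kind within 50 kb was found for 17 of the 54 keratin genes in control and 6 in MGO, against 90.3% and 85.4% of all genes. Most keratin genes sit in 2 clusters, so neighbours share their surroundings. Outside the keratins, 10 of 15 genes had a TSS peak in control and 9 in MGO. Of type III, PRPH, for the peripheral neuron protein peripherin, had a control peak with a −log10 q of 3.22 at an internal start 1509 bp from the canonical TSS and none in MGO. Of type IV, SYNM, for synemin, had one in both, at 8.50 and 4.43. Of the lens filament genes of type VI, BFSP1 had a peak in both libraries and BFSP2 in neither, but the BFSP1 peak lies 37715 bp from the canonical TSS and at the promoter of DSTN, for an actin-severing protein.

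Lists of markers for cell types were set beside the filament genes. Of 12 neuronal markers, 9 had a TSS peak in control and 7 in MGO. MAP2, a dendritic microtubule protein, was the strongest at a −log10 q of 13.6 and 10.3, and TUBB3, the neuronal tubulin, was weak at 1.84 and 1.96. SYP, ENO2, ELAVL4, SNAP25 and RBFOX3 had a peak in both, although those of ELAVL4 and RBFOX3 lay far from the canonical TSS. The ELAVL4 peak also had a TSS of AGBL4 within 1000 bp, and that of RBFOX3 had a −log10 q of 1.48 in control and 2.83 in MGO. GAP43, a growth cone protein, had a control peak of 4.70 and STMN2 one of 3.31, and neither had an MGO peak. The STMN2 peak lay 858 bp from its nearest TSS. ELAVL3, DCX and CHGA had none in either library. RE1-like matches lay within 2000 bp of a TSS for SYP, ELAVL3, STMN2, SNAP25 and CHGA, 5 of the 12, and for 0 of the mesenchymal, epithelial and astroglial markers. They were not confined to neuronal genes, since KRT14, KRT86 and LMNA of the wider filament family had one too. Of 12 mesenchymal markers, 10 had a peak in control and 7 in MGO. The cell adhesion genes FN1, at 18.5 and 8.69, and CDH2, at 13.4 and 10.0, and the transcription factor genes TWIST1, at 10.5 and 8.15, and SNAI2, at 5.89 and 6.29, were open in both. So were ZEB1, COL1A1 and ACTA2, of which the ACTA2 peak is that of the FAS promoter. S100A4, COL1A2 and COL3A1 had weak control peaks, from 1.06 to 2.88, and no MGO peak.

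Of 12 epithelial markers, 5 had a TSS peak in control and 2 in MGO. OCLN, for a tight junction protein, had 3.54 and 3.21, and MUC1, for a membrane mucin, 3.52 and 3.51. The MUC1 peak did not cover a TSS of MUC1. It lay 622 bp from the nearest one in control and 773 bp in MGO, with a TSS of THBS3-AS1 within 1000 bp. CDH1, for E-cadherin, EPCAM and ELF3 had control peaks of 1.36, 2.47 and 1.36 and no MGO peak. That of EPCAM lay 23502 bp from the canonical TSS, with a TSS of EPCAM-DT within 1000 bp. KRT7, KRT19, CLDN4, CLDN7, ESRP1, GRHL2 and RAB25 had none. KRT8 and KRT18 thus had a TSS peak while most epithelial markers, among them KRT7 and KRT19, had none. The peak that KRT18 shares with KRT8, at 2.89 and 2.85, was weaker than those of OCLN and MUC1. The second KRT8 peak, at 6.41 and 5.19, was stronger. Of 6 astroglial markers, AQP4, SLC1A3, SLC1A2 and GJA1 had a peak in both libraries and S100B and ALDH1L1 in neither. The SLC1A2 peak in MGO had a −log10 q of 1.83, below the threshold of the methods. The AQP4 peak lay 1450 bp from the canonical TSS in control and 1827 bp in MGO, and the GJA1 peak 1431 bp in MGO. With so few genes the Wilson intervals are wide. For the share with a control peak they were 46.8 to 91.1% for neuronal, 55.2 to 95.3% for mesenchymal and 19.3 to 68.0% for epithelial markers, and all 3 include the 67.4% of all genes. For the share in MGO they were 32.0 to 80.7% for neuronal and for mesenchymal markers, which includes the 63.9% of all genes. For epithelial markers the interval was 4.70 to 44.8%, below that share, and it rests on 2 of 12 genes. The intervals cover counting error only and take the genes of 1 library as independent. The lists were chosen with earlier results known, and a difference from all genes was not tested.

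**Figure D5:**
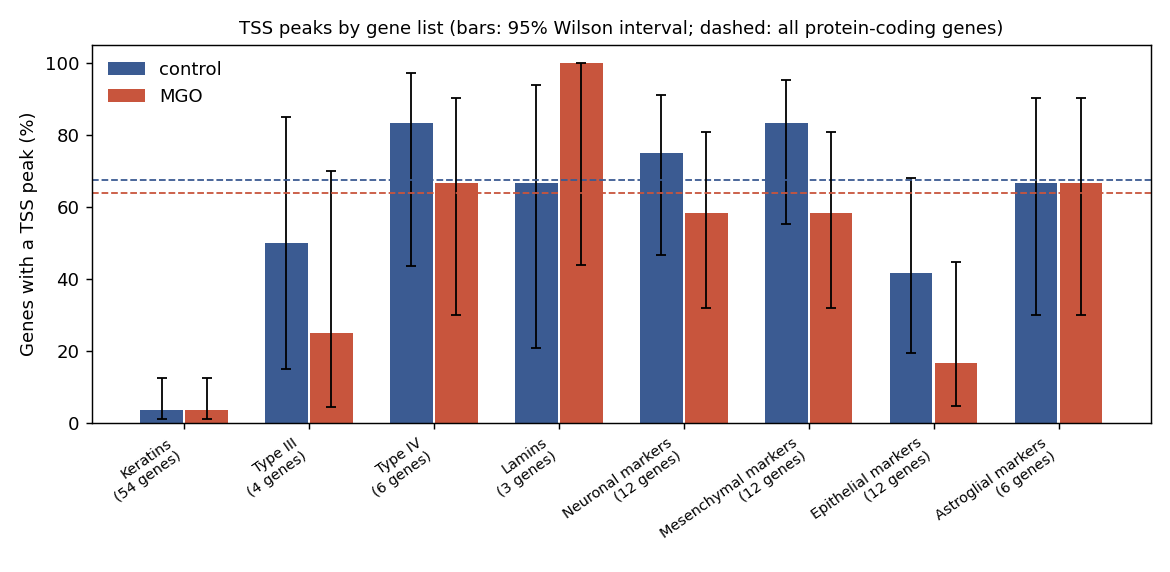
Share of the genes of each list with a TSS peak in control (blue) and MGO (red), with 95% Wilson intervals as error bars and the shares of all protein-coding genes, 67.4% and 63.9%, as dashed lines. Keratins lie far below the dashed lines in both libraries, and KRT7 and KRT19 are counted among both keratins and epithelial markers.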

How the data were processed

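ATAC-seq libraries of control and MGO-treated 293T cells, 1 each, were analysed from the deposited broad peak lists. Per the labels and the methods, the authors aligned reads to GRCh38 with BWA 0.7.15, discarded mitochondrial reads and reads with several positions, thinned the libraries to the same depth and ran MACS2 per library for broad peaks, leaving out the ENCODE blacklist. MACS2's version and settings are not given in the sources used here. For each peak the authors deposited a fold enrichment over background (a ratio), a −log10 p value, a −log10 q value and a score made from the q value, which was not used. The lists hold no counts, so the reads behind a single peak are not known here.

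All deposited peaks were kept. Genes, TSSs and exons were those of GENCODE 44, an annotation of GRCh38, on chromosomes 1 to 22, X and Y. Shares are given with 95% Wilson intervals. GC content and motif matches came from GRCh38, promoters from the RefSeq table of GRCh38.p14. The members and lists were chosen with earlier results of these data known. All 10 members were named, and of the wider lists each gene with a TSS peak in 1 library alone and, for lists with up to 15 such genes, each with a TSS peak. A list of blood cell markers and 1 gene of another list are not reported here. The search for RE1 was added after the peaks had been seen. The calculations used scipy 1.17.1, pandas 2.3.3 and numpy 2.4.6 under Python 3.11.15 and were tested on simulated peaks.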

Additional observations from a re-analysis of the deposited data

How the results depend on the processing

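No paired analysis was possible because each condition has a single library here. Of 77 recomputed values, 47 lay inside the reported value's Wilson interval, if counts differed by at most 1.5 times, or for the covered length ratio lay inside the exact binomial interval of the ratio of peak numbers, and 30 moved further. With a −log10 q of at least 5, 4 members had a TSS peak in control (INA, KRT8, NEFL and VIM) and 2 in MGO (KRT8 and VIM), 2 had a gene body peak in MGO, 9 control and 3 MGO peaks lay within 50 kb, 33.3% of these control peaks overlapped an MGO peak, the covered length ratio was 0.347, and 4 genes of the wider family had an MGO TSS peak. Within 25 kb there were 15 control and 11 MGO peaks, and within 100 kb 45 and 37. At a −log10 q of at least 2, NEFM lost its MGO TSS peak, leaving 5 members. For the marker lists this alternative was chosen after seeing the data. A control TSS peak then remained for 3 epithelial, 7 neuronal, 8 mesenchymal and 4 astroglial markers. An MGO TSS peak remained for 2, 6, 7 and 3 of them.

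Over all protein-coding genes, the share of control peaks within 50 kb that overlapped an MGO peak was 66.6% at a −log10 q of at least 2, 62.3% at 5, 77.5% with equal numbers of peaks, 64.1% within 25 kb, 55.5% within 100 kb and 52.2% with overlap of at least 50%. In the same first 3 settings the share of genes with a control TSS peak was 63.3%, 43.0% and 62.6%. It was 66.4% with a TSS window of 500 bp, 68.8% with 2000 bp and 63.3% with 1 TSS per gene. The MGO share was 57.8% and 31.5% at the 2 thresholds, 63.2% and 65.0% with the 2 windows and 60.3% with 1 TSS per gene. The lists stop near a q value of 0.1, so weaker openness at NEFH, DES or GFAP could not be seen.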

Other observations

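The lamins, type V filament genes whose proteins line the inner nuclear membrane, were open in both libraries for LMNA and LMNB1. LMNB1 had a −log10 q of 7.40 in control and 6.06 in MGO. LMNA had 8.86 at its strongest control peak, which lies at the neighbouring gene MEX3A, and 4.28 in MGO at its canonical TSS. LMNB2 had an MGO peak 302 bp from its TSS with a −log10 q of 1.13 and none in control, a pattern found in 1.98% of genes with an MGO TSS peak. Among 8 genes for proteins that link intermediate filaments to other structures, 5 had a TSS peak in control and 4 in MGO. Of all genes, 67.4% had one in control and 63.9% in MGO. DST and MACF1, for cytoskeletal linkers, DSP, for desmoplakin of desmosomes, and PLEC, for plectin, had one in both. DST had a −log10 q of 15.5 in control and 13.5 in MGO and DSP 7.87 and 7.20. SYNC, for syncoilin, had 2.19 in control and no MGO peak, and PPL, EVPL and EPPK1, of the plakin family, had none. The peaks of PLEC, DST and MACF1 lie at other starts than the canonical TSS.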
